A study of Mus musculus with 6 samples.

Results

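The genes described here are 10 members of the cytokine signalling chain that runs through JAK kinases and STAT transcription factors: Socs1, Socs2, Socs3, Cish, Pim1, Pim2, Pim3, Stat3, Stat5a and Stat5b. They were taken by exact gene symbol from the 30142 genes that the array's annotation names with 1 symbol. Each of the 10 had 1 transcript cluster, the set of probes assigned to 1 gene, and all 10 passed the filter on dim clusters, a mean log2 value above 4.09. Values are the deposited expression values, read as log2 from their range, so every fold below depends on that reading. The 6 arrays were made from hematopoietic stem cells (HSCs) sorted from the lineage-depleted bone marrow of mice aged 6 to 8 weeks, 3 arrays from wild-type (WT) and 3 from CDK19-/- (KO) mice. CDK19 is one of the kinases that associate with Mediator, and the series asks how it bears on HSC proliferation and on p21. The sample titles call the 3 arrays of each genotype biological replicates. Strain, sex, the markers of the gate, the deleted part of Cdk19 and the number of mice behind an array are not stated in the labels. The p-values measure the spread between these samples, and how many mice that spread covers is not known.

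When a cytokine binds its receptor, JAK kinases at the receptor phosphorylate STAT proteins, which enter the nucleus and switch on genes. Among the genes they switch on are those of the SOCS family, Cish included, whose proteins bind receptors or JAKs and damp the signal, and the Pim genes, whose serine/threonine kinases support survival and growth. In blood stem cells, STAT5 acts below thrombopoietin and interleukin-3, and STAT3 below interleukin-6 type cytokines and G-CSF. Transcripts of the feedback genes are often read as a sign of recent cytokine signalling, whereas STAT proteins are controlled chiefly by phosphorylation, which an array does not measure.

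Of the 10 genes, 4 were higher in the knockout, Cish, Socs3, Pim3 and Pim1, and 0 were lower (limma, Benjamini-Hochberg adjusted p under 0.05). Over all 39543 tested clusters 2.96% were called higher and 4.84% lower, and over the brightest clusters of 12707 protein-coding genes 4.71% and 5.94%. The members were chosen with earlier results of these data known, so these shares give a scale and do not test the count. Without adjustment, 5 members were higher and 1 lower at p under 0.05. Cish, an inhibitor of STAT5 signalling, rose 2.19-fold, Socs3, an inhibitor of STAT3 signalling, 1.68-fold and Pim3 1.64-fold. Pim1 rose 1.22-fold, a call that depends on the scaling (adjusted p = 0.058 by limma once array medians are made equal). Socs1, Socs2, Pim2 and the 3 STAT genes did not pass. The members' median log2 change was 0.14, against 0.00 over all tested clusters.

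STAT factors are known to bind a short palindrome, TTCNNNGAA, which reads the same on both strands. RefSeq promoter windows, 250 bases before to 50 bases after an annotated start (GRCm38.p6), were found for 9 members, in 12 windows. In the 250 bases before the start, the stretch planned for the scan, the palindrome was in 1 of the 12, that of Socs3, and in 7.02% of all 32851 windows, and Cish had 0 copies there. Over the whole 300 bases, a window taken after the sequences were seen, it was in 2 of the 12, those of Socs3 and Cish, and in 8.3% of all windows. The Cish window held 2 copies, both after the start, and 0.457% of all windows held 2 or more. These stretches are shown because they hold the matches, which lie in the 2 members with the largest rises. The Cish stretch was picked after its matches were seen. Capitals mark the palindrome, and both read 5′ to 3′ along the gene. The first is the 250 bases before the Socs3 start on the minus strand (chr11:117969367-117969616), and the second the first 30 bases from the Cish start on the plus strand (chr9:107296659-107296688).
Socs3: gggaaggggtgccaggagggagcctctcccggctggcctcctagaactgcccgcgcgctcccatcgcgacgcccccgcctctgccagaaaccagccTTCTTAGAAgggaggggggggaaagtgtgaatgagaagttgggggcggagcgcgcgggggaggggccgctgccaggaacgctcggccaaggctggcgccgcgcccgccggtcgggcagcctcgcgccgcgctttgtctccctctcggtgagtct
Cish: TTCCTGGAAagTTCTTGGAAatctgtcaaa
The Socs3 copy began 154 bases before the annotated start. The Cish copies covered bases 1 to 9 and 12 to 20 from the start. The windows of Pim1, Pim2, Pim3, Socs1, Stat3, Stat5a and Stat5b held 0 copies in these letters, so members that rose and members that did not pass were both among those without one. A match is a run of letters, and binding was not measured.

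The labels were checked first. Cdk19 fell by 0.97 on the log2 scale (SE 0.05; limma adjusted p = 3.2e-04), from 12.44 to 11.47, in all 3 knockout arrays. Its paralogue Cdk8 stood at 8.65 in wild type and 8.63 in knockout. Array medians lay between 4.4 and 4.48, and arrays correlated at 0.997 to 0.998 within a genotype and 0.994 to 0.995 between genotypes, across clusters. The HSC label was set against 14 markers, of which 11 were tested. Kit, Cd34, Procr, Slamf1, Mecom, Hlf, Meis1, Fgd5 and Esam were above the limit of 4.09, Hoxb5 was under it, and Ly6a was not analysed here. Flt3 and Cd48, which mark progenitors past the HSC stage, were above the limit too, at 14.51 and 11.30 in wild type. Markers of other cells were also above it, in 6 of 9 genes listed for lymphoid-primed progenitors, 8 of 10 for B cells, 5 of 8 for T cells, 3 of 6 for NK cells, 10 of 11 for granulocytes and 7 of 10 for monocytes and macrophages. The limit is under every array median, so passing it does not by itself show expression. Some markers that passed were close to it in wild type, such as Cd3g (4.25), Gzma (4.30), Prf1 (4.26) and Pax5 (4.34). In wild type the B cell marker Ighm was at 11.76, the myeloid marker Lyz2 at 11.37 and the lymphoid-primed marker Dntt at 12.74, while Cd3e (T cells), Ms4a1 (B cells), Ncr1 (NK cells) and C1qa (macrophages) were under the limit. The cells are called HSCs here as the labels do, and their purity was not tested.

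**Figure D1:**
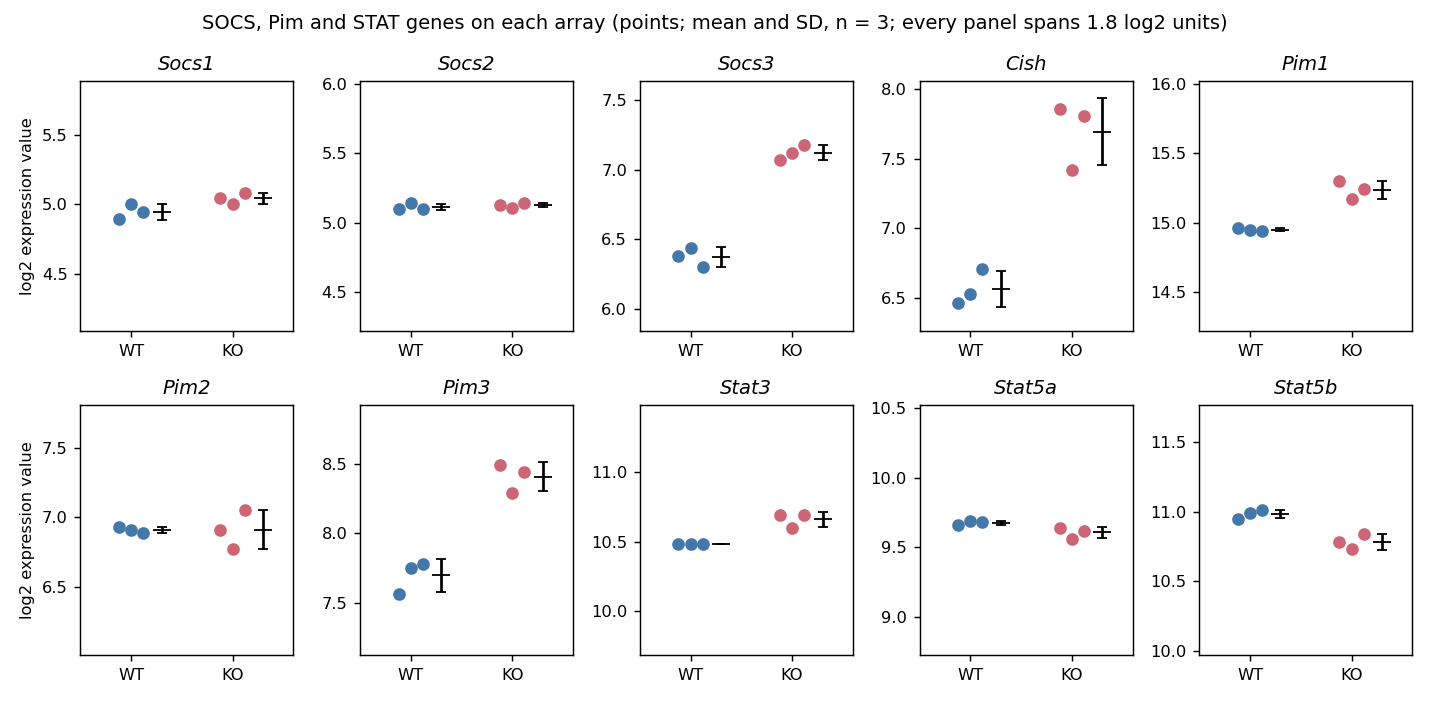
Log2 expression value of each of the 10 genes on the 3 wild-type (WT, blue) and 3 knockout (KO, red) arrays; points are arrays, and the bar to the right of each group is the mean with its SD (n = 3). Every panel spans 1.8 log2 units, centred on its own gene, so gaps can be compared between panels and heights cannot; Cish, Socs3 and Pim3 show the widest gaps between groups.

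The SOCS family split. Cish read 6.46, 6.53 and 6.71 on the wild-type arrays and 7.86, 7.42 and 7.81 on the knockout arrays. The lowest knockout array was 0.71 above the highest wild-type array. The mean went from 6.57 ± 0.13 (SD, n = 3) to 7.70 ± 0.24 (SD, n = 3), a log2 change of 1.13 (SE 0.13; 95% interval 0.81 to 1.45; limma adjusted p = 0.0052). Of all tested clusters, 0.296% had a larger rise. With 1 array left out in turn, the Cish change ran from 1.05 to 1.27 and the adjusted p from 0.0047 to 0.03.

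Socs3 encodes a protein that blocks JAK kinases at the gp130 and G-CSF receptors. Its wild-type values were 6.38, 6.44 and 6.30, and its knockout values 7.07, 7.12 and 7.18, so the groups lay 0.63 apart. The log2 change was 0.75 (SE 0.07; 95% interval 0.59 to 0.91; limma adjusted p = 0.0021), the smallest adjusted p among the 10 genes. A larger rise was seen in 0.918% of tested clusters.

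Socs1, the main brake on interferon and interleukin-4 signalling, read 4.89, 5.0 and 4.94 in wild type and 5.04, 5.0 and 5.08 in knockout. The ranges met at 5.0. The difference was 0.10 (95% interval -0.06 to 0.25; limma adjusted p = 0.46). Socs2, a regulator of growth hormone signalling and a STAT5 target, read 5.10, 5.14 and 5.10 against 5.13, 5.11 and 5.14. All 6 values lay within a few hundredths of each other. Its difference was 0.01 (95% interval -0.12 to 0.15; limma adjusted p = 0.93), and its sign turned once array medians were made equal (-0.02). Both genes lay not far above the limit of 4.09 under which clusters were not tested.

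The change of Socs3 exceeded that of Socs1 by 0.65 on the log2 scale, and the change of Cish exceeded that of Socs2 by 1.12. These and 4 other pairs of related members were chosen after their values were seen and compared through the difference of the 2 genes on each array. In all 6 pairs the wild-type and knockout differences did not overlap, and how often other gene pairs separate in this way was not computed. The exact two-sided permutation p was 0.1 for each, also after adjustment over the 6 pairs, which is the smallest that 3 arrays against 3 can give, so this design cannot reach 0.05.

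The remaining members of the SOCS family, Socs4, Socs5, Socs6 and Socs7, are less tied to STAT feedback. None of the 4 was called in either direction by limma, and none had an unadjusted p under 0.05, both counts being 0. Their log2 changes ran from -0.11 for Socs5 to 0.07 for Socs7. The SOCS box recruits a ubiquitin ligase built from Elob, Eloc, Cul5 or Cul2, and Rnf7. Of these 5 genes 0 were called and 1 had an unadjusted p under 0.05, with differences from 0.00 for Rnf7 to 0.26 for Elob.

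The Pim genes encode 3 closely related kinases that are active once made, so that their output follows their amount. Pim3 read 7.56, 7.75 and 7.78 in wild type and 8.49, 8.29 and 8.44 in knockout. The groups were 0.51 apart. Its mean went from 7.70 ± 0.12 (SD, n = 3) to 8.41 ± 0.10 (SD, n = 3), a log2 change of 0.71 (SE 0.09; 95% interval 0.50 to 0.92; limma adjusted p = 0.0063). With 1 array left out it ran from 0.64 to 0.77, with adjusted p from 0.014 to 0.029.

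Pim1, the classic STAT5 and STAT3 target of the family, read 14.96, 14.95 and 14.94 in wild type and 15.30, 15.17 and 15.24 in knockout. The wild-type arrays differed by hundredths, and the lowest knockout array was 0.21 above them. The log2 change was 0.29 (SE 0.04; 95% interval 0.18 to 0.39; limma adjusted p = 0.012). Leaving out wild-type array 2 raised the adjusted p to 0.055, and leaving out wild-type array 3 raised it to 0.062. A larger rise than that of Pim1 was found in 6.91% of tested clusters.

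Pim2 read 6.93, 6.91 and 6.89 in wild type and 6.91, 6.77 and 7.05 in knockout. The means were both 6.91, with the knockout arrays spread more widely (SD 0.14 against 0.02). The interval of the difference was -0.20 to 0.20 (limma adjusted p = 1.0), which leaves room for a change of that size in either direction. The change of Pim3 exceeded that of Pim1 by 0.42 and that of Pim2 by 0.71.

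**Figure D2:**
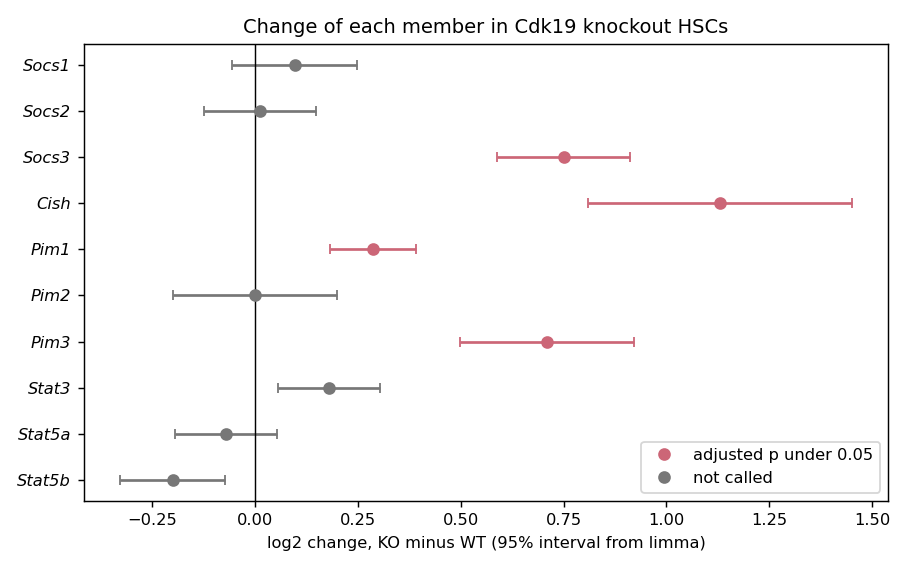
Log2 change from wild type to Cdk19 knockout of each of the 10 genes (point) with its 95% interval from limma (bar); red marks genes with an adjusted p under 0.05. The intervals of Cish, Socs3, Pim3 and Pim1 lie above 0, and those of Stat3 and Stat5b also miss 0 although these genes did not pass after adjustment.

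None of the 3 STAT genes passed the test. Stat3 read 10.48 on all 3 wild-type arrays and 10.69, 10.60 and 10.69 on the knockout arrays, a difference of 0.18 (SE 0.05; 95% interval 0.06 to 0.30; limma adjusted p = 0.095). The groups did not overlap, but the test was not passed. With 1 array left out its adjusted p ran from 0.084 to 0.26.

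Stat5b read 10.95, 10.99 and 11.01 against 10.78, 10.73 and 10.84, a difference of -0.20 (SE 0.05; 95% interval -0.33 to -0.07; limma adjusted p = 0.077). It too was separated by group without passing, and it was called after quantile normalization (adjusted p = 0.038). Stat5a, its close paralogue, read 9.66, 9.69 and 9.68 against 9.64, 9.56 and 9.62. The difference was -0.07 (95% interval -0.20 to 0.06; limma adjusted p = 0.52). Because the paralogues share sequence, probes of one may report some transcript of the other. The change of Stat3 exceeded that of Stat5b by 0.38.

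Stat5b, Stat5a and Stat3 lie next to each other, in this order, on chromosome 11 in the RefSeq gene table. On these arrays the differences at the 2 ends of that run, Stat5b and Stat3, had opposite signs. Beyond the members themselves, the nearest protein-coding genes on both sides of the 10 members came to 16, of which 12 were tested. By limma 0 of the 12 were called, and 2 had an unadjusted p under 0.05. Their log2 changes ran from -0.18 for Fgd2, beside Pim1, to 0.24 for Pgs1, beside Socs3. Mapkapk3 and Hemk1, on either side of Cish, differed by 0.14 and -0.01.

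Counted over the 10 genes, all knockout arrays were above all wild-type arrays in 5 and below them in 2. The shares over all tested clusters were 11.6% and 14.9%. Knockout array 2 was the lowest of the knockout arrays in 9 of the 10 genes, Socs3 being the exception, and it had the highest median over all clusters (4.48). Leaving this array out altered none of the 10 calls.

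**Figure D3:**
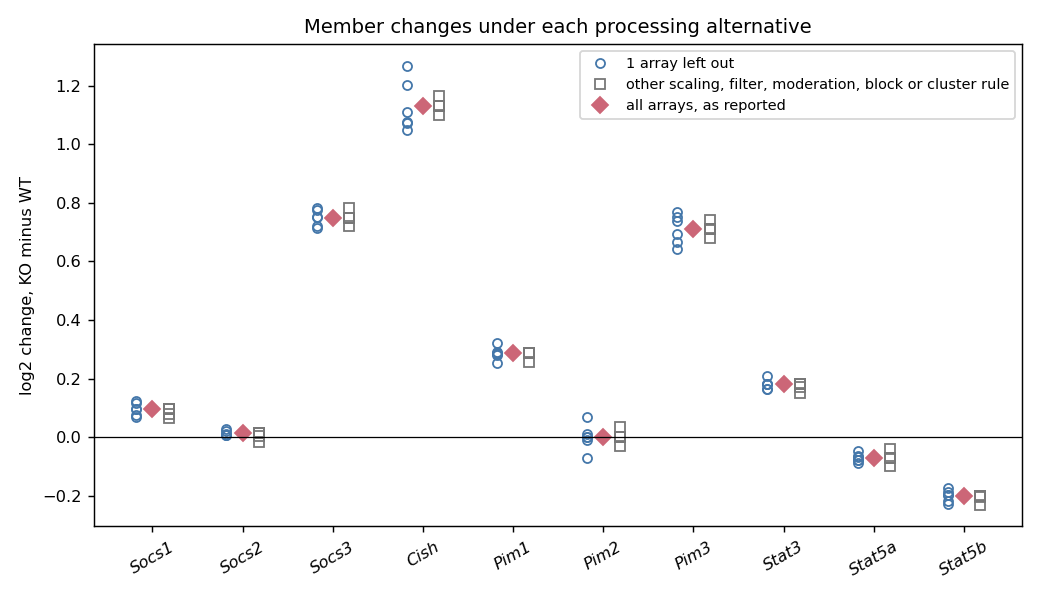
Log2 change of each of the 10 genes with all arrays as reported (red diamonds), with 1 of the 6 arrays left out (blue circles) and with another scaling, filter, moderation, replicate block or cluster rule (grey squares). Cish spans 1.05 to 1.27 and stays the highest of the 10; Socs2 and Pim2 straddle 0.

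The gene lists below were chosen with earlier results of these data known. Beside their counts, 4.71% of protein-coding genes were called higher and 5.94% lower, a scale and not a test. Of the genes upstream, the JAK kinases were measured through Jak1, Jak2 and Tyk2. By limma 0 of the 3 were called, and 1, Jak2, had an unadjusted p under 0.05. Jak2, which serves the erythropoietin and interleukin-3 receptors, differed by 0.17 (95% interval 0.03 to 0.32; limma adjusted p = 0.17). Jak1 differed by -0.05 and Tyk2 by -0.12. Of the other STAT factors, 1 of 3 tested fell. Stat4, which acts below interleukin-12, was 12.33, 12.30 and 12.36 in wild type and 11.70, 11.60 and 11.70 in knockout, with a log2 change of -0.66 (SE 0.05; limma adjusted p = 0.0012). Stat6, which acts below interleukin-4, differed by -0.23 and passed after quantile normalization (adjusted p = 0.035) and with a stricter filter (0.044). Stat2 differed by -0.05.

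Among 11 other inhibitors of the pathway, 1 rose and 1 fell, with a list median of -0.12. Without adjustment, 1 was higher and 6 were lower at p under 0.05 by limma. Ptpn1, a phosphatase of JAK2 and TYK2, rose by 0.42 (limma adjusted p = 0.012), and leaving out wild-type array 2 or 3 raised that p to 0.054 or 0.059. Ptpn6, encoding the phosphatase SHP-1, had a log2 change of -0.47 (SE 0.06; limma adjusted p = 0.0074). Sh2b3, encoding the cytokine signalling brake LNK, differed by 0.12 and the SUMO ligase gene Pias4 by -0.21, without passing.

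Of 34 genes for receptors that signal through JAKs, 22 were tested, 2 rose and 4 fell (list median -0.05, against 0.00 over all named genes tested). Il4ra, the interleukin-4 receptor chain, showed the largest rise, from 10.65, 10.60 and 10.61 to 11.86, 11.73 and 11.80. Its log2 change was 1.18 (SE 0.05; limma adjusted p = 1.9e-04), or 2.26-fold. Il21r rose by 0.32, but lost its call with any 1 array left out (adjusted p from 0.053 to 0.083). The falls were Il7r, the interleukin-7 receptor of lymphoid progenitors, at -1.08, Ifnar1, an interferon receptor chain, at -0.43, Il10rb at -0.41 and Il6ra at -0.37. Il10rb did not pass when wild-type array 1, 2 or 3 was left out (adjusted p = 0.058, 0.07 and 0.062). Il6ra, named after its value was seen, lost it in 5 of the 6 runs with an array left out, with adjusted p from 0.059 to 0.11 in those runs. Without any 1 wild-type array 2 receptors were called lower.

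Of 29 ligand genes, 14 were too dim to test and 14 were tested, of which 3 rose and 1 fell. Lif, a ligand of the gp130 family that signals through STAT3, was 8.14, 7.87 and 8.03 in wild type and 9.37, 9.12 and 9.27 in knockout. It rose by 1.24 (SE 0.10; limma adjusted p = 0.0013). Osm, a related ligand and itself a STAT5 target, rose by 0.69 (adjusted p = 0.0043 by limma), from 9.37 to 10.06. Il10, whose receptor signals through STAT3, rose by 1.19 (adjusted p = 5.6e-04 by limma), from 5.30 to 6.49. Il12a, a subunit of interleukin-12, had a log2 change of -0.80 (adjusted p = 0.0024 by limma). Il6, Csf3, Csf2 and Il3 were too dim to test, and Thpo was not analysed here.

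**Figure D4:**
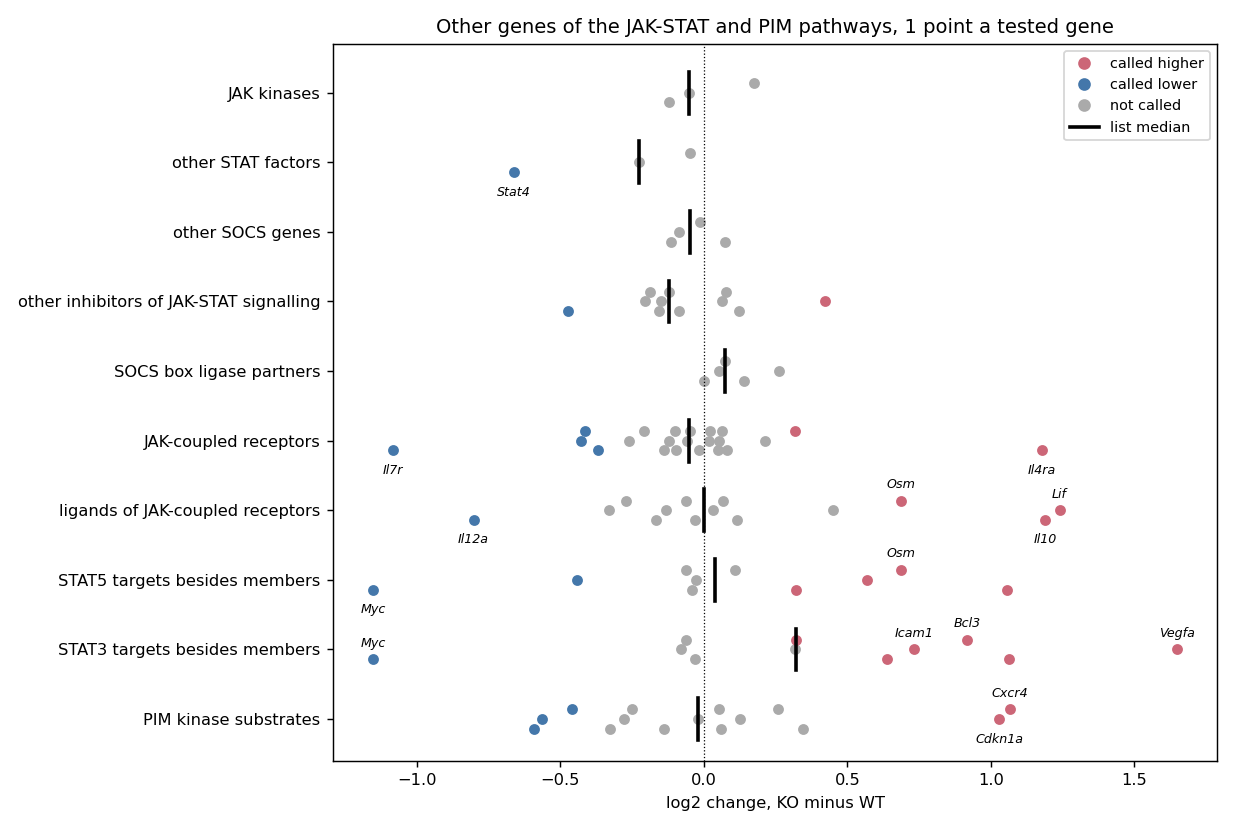
Log2 change from wild type to Cdk19 knockout of the tested genes in 10 further lists of the pathway, 1 point a gene; red and blue mark genes called higher and lower (limma, adjusted p under 0.05), grey marks genes that were not called, and black bars are list medians. The STAT3 target list has the highest median, 0.32, and the other medians lie between -0.23 and 0.07. All lists were chosen with earlier results of these data known.

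Targets of STAT5 other than the members went both ways. Of 10 tested, 4 rose and 2 fell (median 0.04). Bcl6, a transcriptional repressor, rose by 0.57, Mcl1, a survival factor, by 0.32 and Id1 by 1.06, beside Osm. Mcl1 and Id1 were named after their values were seen. Mcl1 did not pass when wild-type array 2 was left out (adjusted p = 0.051). Id1 did not pass when wild-type array 1, 2 or 3 was left out (0.065, 0.062 and 0.063), nor when knockout array 1 was (0.052). Leaving out wild-type array 2 brought the count of rises to 2. Myc had a log2 change of -1.15 and Ccnd2, encoding cyclin D2, one of -0.44.

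Among targets of STAT3, 6 of 11 tested rose and 1 fell, with a median of 0.32. The shares over protein-coding genes were 4.71% higher and 5.94% lower. This list too was chosen with earlier results known, so the shares do not test its count. Vegfa, the angiogenic factor, rose by 1.65, from 11.79 to 13.44 (limma adjusted p = 4.3e-04). Bcl3 rose by 0.92 and Icam1 by 0.73, and both are also known targets of NF-kB. Cebpb and Hif1a, transcription factor genes named after their values were seen, rose by 1.06 and 0.64, and Mcl1 is on both target lists. Myc was the gene that fell, and it is on both lists as well. Birc5, encoding survivin, differed by -0.08.

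The proteins that PIM kinases phosphorylate include p21 and p27, the cell cycle inhibitors encoded by Cdkn1a and Cdkn1b. Of 15 substrate genes tested, 2 rose and 3 fell. Cdkn1a and the chemokine receptor gene Cxcr4, whose protein holds HSCs in the marrow, rose by 1.03 and 1.07. Myb, a transcription factor of progenitors, had a log2 change of -0.56, Cdkn1b one of -0.59 and Nfatc1, named after its value was seen, one of -0.46. Cdkn1b did not pass when wild-type array 1, 2 or 3 was left out (adjusted p = 0.082, 0.09 and 0.069), nor when knockout array 1 was (0.052). Nfatc1 did not pass when wild-type array 2 or 3 was left out (0.12 and 0.13), when knockout array 2 or 3 was (0.093 and 0.1), or when dim clusters were kept (0.052). Leaving out either of wild-type arrays 2 and 3 brought the number of falls to 1.

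Markers of some other cells also differed between the genotypes. Beside the counts given here, 4.71% of protein-coding genes were called higher and 5.94% lower. Of 7 tested megakaryocyte markers 5 rose (median 0.56), and the log2 of their summed level was 10.27 to 10.33 in wild type and 11.14 to 11.23 in knockout. Of 6 lymphoid-primed progenitor markers 4 fell (median -0.90; summed level 14.95 to 14.96 against 13.94 to 14.02), and Il7r is on this list too. B cell markers fell in 4 of 8 (11.88 to 11.93 against 10.90 to 11.13) and HSC markers in 4 of 11 (16.84 to 16.90 against 16.48 to 16.53). The HSC list holds Flt3 and Cd48, which mark later progenitors. Its falls were Hlf, Kit, Meis1 and Flt3, and Flt3 is also among the lymphoid-primed falls. In granulocyte markers 2 of 10 rose, Prtn3 and Ctsg (16.97 to 16.98 against 16.90 to 16.98), and in monocyte and macrophage markers 1 of 7, Cd14 (12.66 to 12.91 against 12.43 to 12.99). Each summed level takes in every list gene with a cluster, dim ones included, and can rest on 1 bright gene. That gene was Mpo for granulocytes (16.93 in wild type, 16.87 in knockout) and Ighm for B cells. For lymphoid-primed progenitors the brightest was Flt3 (14.51 in wild type, 13.62 in knockout). For mast cells and basophils it was Cpa3 (12.52 and 12.93), the gene called higher on that list. In mast and basophil markers 1 of 6 rose (12.69 to 12.82 against 13.07 to 13.13), and in endothelial and stromal markers 1 of 5 fell (11.50 to 11.56 against 11.20 to 11.34). Of T cell, NK cell and erythroid markers 0 of 5, 0 of 3 and 0 of 5 were called by limma, with 1, 1 and 0 at an unadjusted p under 0.05. The part of these markers in the changes of the SOCS, Pim and STAT genes was not tested. In sorted bulk RNA, fewer cells of a type and less RNA per cell cannot be told apart.

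Genes with the pattern most like that of Cish, the member with the largest rise, were sought over the 6 arrays. The highest Pearson correlations were those of Utp4 (0.999), a ribosome biogenesis gene, Fam102b (0.999), Itpkb (0.997), an inositol phosphate kinase gene, Map3k8 (0.997), a kinase gene of inflammatory signalling, and Irak2 (0.997), a kinase gene of Toll-like receptor signalling. Their log2 changes were 0.54, 0.41, 0.85, 0.69 and 0.81. The 6 arrays fall into 2 genotypes, so any gene that separates them scores high, and 604 genes had a correlation above 0.95. These values describe the arrays and carry no test.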

How the data were processed

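The authors deposited 1 table of log2 expression values, with 65956 transcript clusters and 6 arrays, 3 wild type and 3 knockout. Per the submitters' processing notes, MAS5 was used, with no version or role. For background correction, normalization and log base, the method is not given in the sources used here. Values (2.04 to 19.93) were taken as log2, on which every fold rests. Levels are not compared between genes, save in the summed marker levels, in naming their brightest genes and against the limit for dim clusters. Precision is limited by the number of arrays.

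The dimmest 40% of clusters by mean were dropped (limit 4.09), leaving 39543. Genotype was fitted with limma 3.58.1 (R 4.3.3), with an intensity trend and two-sided p-values, adjusted by Benjamini-Hochberg across every tested cluster and called under 0.05. A gene's brightest cluster was used. The fit was also run on simulated data with independent noise, which cannot test how calls depend on scaling or on single arrays. Python 3.11.15, pandas 2.3.3 and matplotlib 3.10.9 made tables and plots.

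Symbols came from the platform annotation, 827 of them updated through the RefSeq gene table. Members and lists were chosen with earlier results of these data known. Apart from the members, Cdk19 and Cdk8, genes were named by rule: in each list, up to 4 called genes of smallest p and the 2 highest and 2 lowest statistics, plus the 5 genes most like the member with the largest rise. Marker genes, neighbours of members, genes given only as too dim or not analysed, and genes said to be named after their values were seen fall outside that rule. Same-numbered arrays did not deviate together, so the fit has no replicate block. Alternatives were quantile normalization, a common median, no filter, a stricter filter of 60%, no intensity trend, a replicate block, the mean over a gene's clusters and each array left out.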

Additional observations from a re-analysis of the deposited data

How the results depend on the processing

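Cish, Socs3 and Pim3 were called higher under all 13 alternatives run, and Cdk19 lower under all 12. Pim1 was called under 9 of 13 and kept its direction: its log2 change was 0.26 with a common median (adjusted p = 0.058), and 0.29 and 0.28 without wild-type array 2 or 3, in a range of 0.26 to 0.32 over arrays left out. Stat5b was called after quantile normalization (log2 change -0.21, adjusted p = 0.038), so 1 member was then lower. No alternative called Socs1, Socs2, Pim2, Stat3 or Stat5a. The replicate numbers are shared between genotypes, but deviations of same-numbered arrays correlated at -0.14, -0.10 and 0.02, so they give no sign of pairing. With a replicate block, 630 clusters were higher and 1083 lower, Pim1 had a log2 change of 0.29 (adjusted p = 0.05017), and the counts were 0 higher among other inhibitors, 1 higher and 2 lower among receptors and 1 lower among PIM substrates. With 1 array left out, clusters called higher ran from 542 to 971 and lower from 764 to 1508, against 1172 and 1914. Such runs gave 0 to 1 other inhibitors higher, 1 receptor higher in each run and 2 to 4 lower, 2 to 4 STAT5 targets higher and 1 to 2 PIM substrates lower. Quantile normalization gave 2 other STAT factors and 2 ligands lower. The stricter filter, which adjusts over fewer clusters, gave 2 other STAT factors, 3 ligands and 5 PIM substrates lower. The cause of the other changes was not tested. Each member had 1 cluster, so the mean over clusters changed only the adjustment.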
